A study of Homo sapiens with 16 samples.

Results

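Long intergenic noncoding RNAs, which carry the symbol LINC and a number, were followed across the arrays. A LINC gene was included when a probe set had that symbol and no other and its mean log2 intensity over the 16 arrays was 3 or more, with the brightest probe set taken where a gene had several. This held for 62 of 642 LINC genes with a probe set of their own (9.66%), while 50.15% of all 22395 genes reached that level. The genes were thus chosen by measured intensity, so the level itself is a description and was not tested. LINC01588 was the last gene inside, with a mean of 3.08, and LINC00858 the first outside, with 2.989. The other 580 LINC genes had a median of 1.388. Of the 62 genes 61 are typed as long noncoding RNAs in the RefSeq gene table, and LINC00266-1 is not in it. LINC02210, LINC01547 and LINC01560 stand under older symbols in the array's annotation.

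RNA came from the long-established colorectal cancer lines DLD1 and HCT116. Each was used as an isogenic pair differing in PIK3CA, which encodes p110-alpha, the catalytic part of a phosphoinositide kinase that relays growth factor signals. Mut derivatives lost the wild-type allele by knockout and kept the mutant one. WT derivatives lost the mutant allele, so every group carries an engineered allele loss and no parental line was measured. Each of the 4 derivatives was kept for 24 h in DMEM and 10% dialyzed serum with glutamine (+Gln) or without it (-Gln), which gave 8 groups of 2 biological replicates. The labels do not say how many clones stand behind a derivative or how the replicates were grown apart, so the errors measure only the spread between these samples.

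LINC transcripts are made by RNA polymerase II, mostly spliced and polyadenylated, and hold no long conserved reading frame. Many are kept at low level and in few cell types, and some act on a neighbouring gene in the nucleus while others bind proteins or microRNAs in the cytoplasm. Several of the genes below have been studied in colorectal cancer cells, among them LINC00460, LINC00857 and LINC00941, which were described as promoting growth or invasion. LINC00467 is described as a source of a mitochondrial micropeptide in that cancer. Glutamine feeds the nitrogen and carbon of nucleotide and amino acid synthesis, and cells deprived of it make ATF4, a transcription factor of amino acid shortage.

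The promoters of 6 genes are printed because their transcripts moved with glutamine. LINC00857, LINC02604 and LINC00963 rose in all 4 derivatives, LINC00941 in 3, LINC02709 rose most in DLD1 Mut, and LINC00641 fell in both DLD1 derivatives. Each is the RefSeq sequence of GRCh38.p14 from 250 bases before to 50 bases after the gene's start, on the gene's own strand, and 51 of the 62 genes had one in the RefSeq table. Capitals mark a match on either strand to AP-1 (TGANTCA), the ATF4 composite core (TGATGNAA), the E-box (CACGTG), the TATA box (TATAAA) or the CCAAT box (CCAAT, read as ATTGG on the other strand). In the order printed they lie at chr10:80207460-80207759, plus strand, chr7:66903870-66904169, plus strand, chr9:129488410-129488709, plus strand, chr12:30795431-30795730, plus strand, chr11:9759484-9759783, minus strand, and chr14:21206851-21207150, minus strand.
LINC00857: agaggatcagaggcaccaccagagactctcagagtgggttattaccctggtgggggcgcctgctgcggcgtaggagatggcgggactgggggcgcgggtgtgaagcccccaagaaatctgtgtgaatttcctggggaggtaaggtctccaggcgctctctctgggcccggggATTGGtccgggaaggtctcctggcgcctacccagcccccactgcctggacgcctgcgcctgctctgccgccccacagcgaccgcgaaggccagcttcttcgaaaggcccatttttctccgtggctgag
LINC02604: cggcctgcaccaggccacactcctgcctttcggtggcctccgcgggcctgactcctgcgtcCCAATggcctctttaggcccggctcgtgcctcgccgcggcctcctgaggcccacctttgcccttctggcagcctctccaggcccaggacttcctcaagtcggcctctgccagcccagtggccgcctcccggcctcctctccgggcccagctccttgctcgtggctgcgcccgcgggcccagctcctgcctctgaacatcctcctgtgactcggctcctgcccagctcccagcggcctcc
LINC00963: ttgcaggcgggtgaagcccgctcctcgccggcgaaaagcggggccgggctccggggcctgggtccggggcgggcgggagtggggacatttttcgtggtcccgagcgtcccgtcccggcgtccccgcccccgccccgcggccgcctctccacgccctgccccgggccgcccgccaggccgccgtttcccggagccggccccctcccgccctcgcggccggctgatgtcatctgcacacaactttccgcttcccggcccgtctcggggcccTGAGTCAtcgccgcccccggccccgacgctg
LINC00941: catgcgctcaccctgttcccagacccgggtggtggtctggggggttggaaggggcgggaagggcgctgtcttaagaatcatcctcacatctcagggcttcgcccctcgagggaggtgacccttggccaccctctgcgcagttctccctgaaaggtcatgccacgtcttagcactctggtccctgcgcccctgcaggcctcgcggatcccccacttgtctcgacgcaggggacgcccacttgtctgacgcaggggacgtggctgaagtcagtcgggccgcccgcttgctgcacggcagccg
LINC02709: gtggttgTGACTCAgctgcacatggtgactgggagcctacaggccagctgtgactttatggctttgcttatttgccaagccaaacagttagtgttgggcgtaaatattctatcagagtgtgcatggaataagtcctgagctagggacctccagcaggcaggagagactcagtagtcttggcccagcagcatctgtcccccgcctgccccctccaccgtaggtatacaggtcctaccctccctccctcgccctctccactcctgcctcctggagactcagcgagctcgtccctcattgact
LINC00641: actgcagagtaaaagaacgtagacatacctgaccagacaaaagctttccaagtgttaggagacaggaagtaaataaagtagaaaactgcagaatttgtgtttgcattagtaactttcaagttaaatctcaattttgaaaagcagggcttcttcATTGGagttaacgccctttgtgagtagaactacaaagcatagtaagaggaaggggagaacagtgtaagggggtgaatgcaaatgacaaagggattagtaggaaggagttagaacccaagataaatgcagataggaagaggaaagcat

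In these windows the LINC00963 promoter had an AP-1 match downstream of the start and the LINC02709 promoter had one near its upstream end, while LINC00857, LINC02604 and LINC00641 each had a CCAAT match and LINC00941 had none of these words. AP-1 matches stood in 6 of the 51 LINC promoters (11.8%) and in 7.71% of all 35116 promoters in the table. The ATF4 composite core stood in 2 of 51 (3.92%), against 3.62% of all promoters, and in none of the 21 promoters of genes that rose on average without glutamine. Those 21 promoters held AP-1 in 5, the E-box in 1, TATAAA in 3 and CCAAT in 10. Of all promoters 7.26% held the E-box and 11.5% TATAAA. The LINC01061 and LINC01002 promoters are near-identical in sequence. Their AP-1 match and their CCAAT match are thus each counted for both genes. CCAAT stood in 27 of 51 (52.9%), against 34.6% of all promoters, and median GC content was 60.3% against 58.7%. A match describes these letters and is not a binding site.

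Array medians ran from 3.565 to 3.705 and upper quartiles from 19.89 to 22.721. Replicates correlated at r = 0.9915 to 0.9934 across all genes and at 0.962 to 0.9768 across the 62 genes, which are not independent replicates. The median difference between replicates was 0.172 to 0.247 (log2) for the LINC genes and 0.152 to 0.175 for all genes. Colon epithelium markers summed to intensities of 3110 to 7760 per group, with 8 of 12 markers at a mean log2 of 3 or more. Of the markers of fibroblasts, leukocytes and endothelium none reached that level, and their sums stayed at 23.1 to 27.2, 17.2 to 28.2 and 9.83 to 11.3. PIK3CA itself was not analysed here.

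Differences below are log2 changes, given with ± their standard error (SE), from 1 limma fit over the 16 arrays, and a gene is called when its Benjamini-Hochberg adjusted p over 15676 tested genes is under 0.05. The median SE of a difference between 2 groups was 0.202 for LINC genes and 0.170 for all tested genes. Of the variance of log2 intensity over the arrays, the cell line held a median of 26.8% in LINC genes and 20.1% in all tested genes. Glutamine held 34.9% and 30.7%, genotype 7.3% and 8.99%, and the replicates 9.09% and 12.1%. Here the glutamine share includes its interactions with line and genotype, and the genotype share includes its interaction with line. The line share holds no interaction, so the shares are not of like kind. The line was the largest share in 27 LINC genes (43.5%, beside 33.0% of all tested genes) and glutamine in 26 (41.9%, beside 38.3%). The replicates were the largest in 8 (12.9%, beside 21.4%) and genotype in 1 (1.61%, beside 7.3%). That 1 gene was LINC00265, with 53.09% in genotype. In none of the 13 contrasts below was a call made for 7 genes: LINC02595, LINC01023, LINC00339, LINC00566, LINC01560, LINC00852 and LINC01599. No share of all tested genes is given beside that count.

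**Figure D1:**
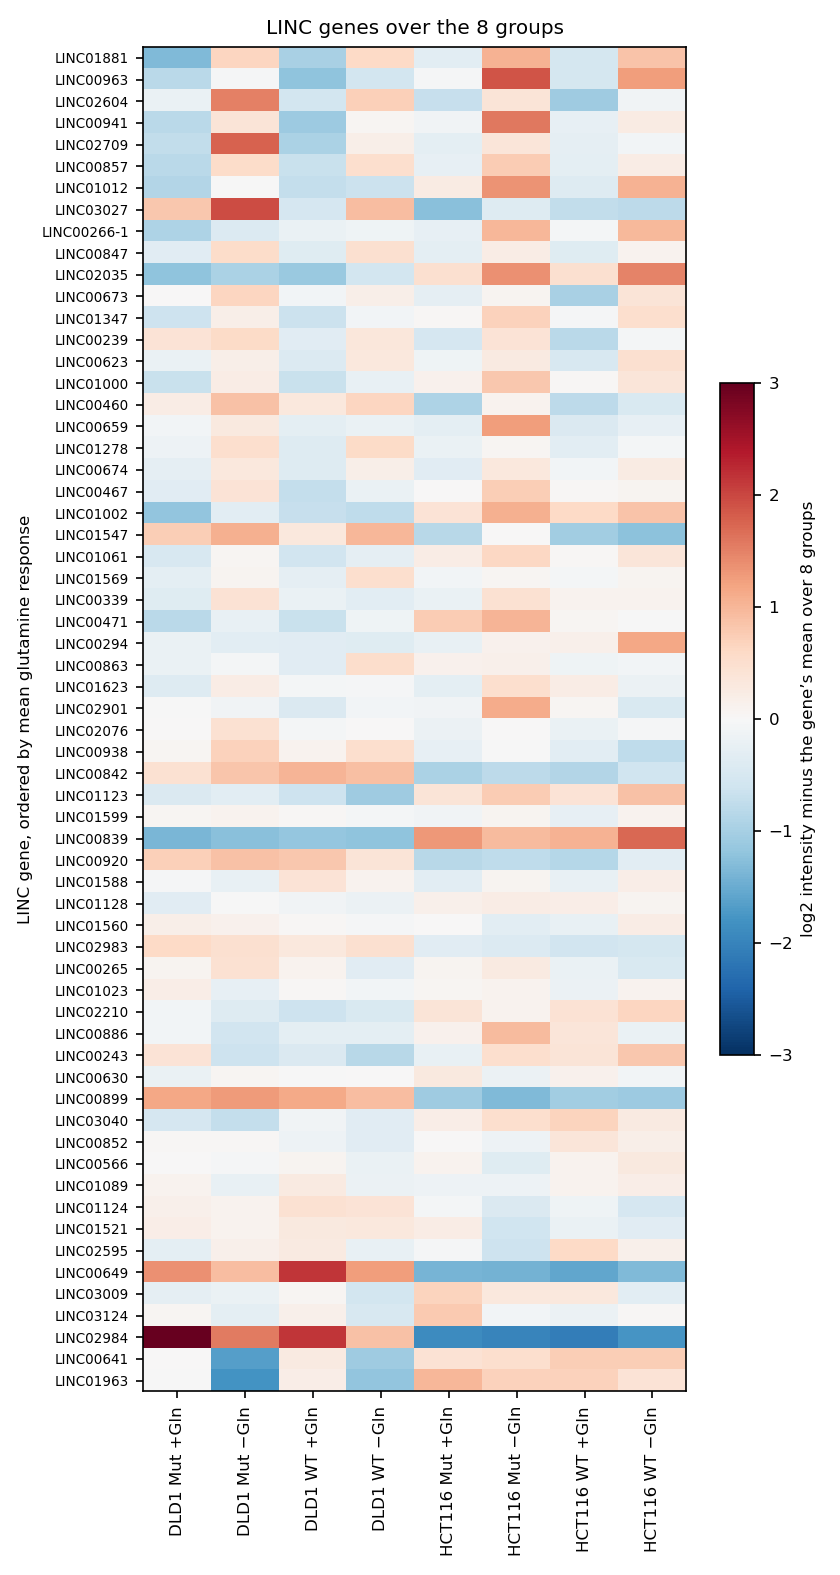
Rows are the 62 LINC genes, ordered by their mean response to glutamine withdrawal, and columns are the 8 groups (means of 2 arrays). Colour gives the log2 intensity minus the gene's mean over the 8 groups, red above and blue below. LINC02984, LINC00649, LINC00899 and LINC00839 split by cell line, and the top rows, LINC01881, LINC00963 and LINC02604, are redder in each group without glutamine than in its partner.

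Most of the LINC genes differed between the cell lines, as did most tested genes with a mean log2 of 3 or more. LINC02984, LINC00649 and LINC00899 had the largest excess in DLD1, and LINC00839, LINC02035 and LINC01002 the largest in HCT116, among genes whose 8 DLD1 and 8 HCT116 arrays did not overlap. Over the 62 genes 17 were called higher in DLD1 and 25 lower, which is 27.4% and 40.3% beside 30.3% and 27.0% of all tested genes, and 36.8% and 31.9% of the 11231 tested genes that also had a mean log2 of 3 or more. The median difference was -0.08, against 0.029 in all genes. In RNA of whole cultures, fewer cells with a transcript and less of it per cell cannot be told apart. A line difference of 2-fold or more was called in 16 genes (25.8%, beside 12.8% of all tested genes). One of 4-fold or more was called in 4 (6.45%, beside 4.48%). These 4 were LINC02984, LINC00649, LINC00839 and LINC00899, which all reached a mean log2 of 3 in 1 line only. The 16 hold others of that kind, and the 17 and 25 hold 6 and 3. Such genes passed the level filter through their higher line, so these counts are a description.

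Of the 62 genes 53 were at a mean log2 of 3 or more in both lines, and of these 11 were called higher in DLD1, 22 lower and 20 not. The other 9 reached that level in 1 line only and so had to differ. LINC02984, LINC00649, LINC00899, LINC00842, LINC03027 and LINC01124 reached it in DLD1 and LINC00839, LINC02035 and LINC00886 in HCT116. For these 9 the line difference is given as a description, with no test.

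LINC02984 had intensities of 108 and 113 in DLD1 Mut +Gln, 49.1 and 61.0 in DLD1 WT +Gln, 34.1 and 39.3 in DLD1 Mut -Gln and 20.2 and 26.0 in DLD1 WT -Gln. In HCT116 it stayed between 2.6 and 4.68 on all 8 arrays. The lowest DLD1 array stood above the highest HCT116 array, and the mean difference was 3.86. LINC00649 lay between 17.5 and 54.6 in DLD1 and between 3.53 and 5.67 in HCT116, a mean difference of 2.86. LINC00899 lay between 13.1 and 27.8 in DLD1 and between 2.62 and 5.16 in HCT116, a mean difference of 2.26. These 3 transcripts were near the dim end of the array in HCT116 whatever the genotype or medium.

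LINC00839 gave the mirror pattern, with 4.69 to 6.68 in DLD1 and 23.7 to 54.3 in HCT116 (a mean difference of -2.50). LINC02035 lay between 5.62 and 15.4 in DLD1 and between 17.2 and 56.7 in HCT116 (a mean difference of -1.92). Within HCT116 its 4 arrays without glutamine, from 28.0 to 56.7, were above the 4 with it, from 17.2 to 26.8. LINC01002 lay between 34.0 and 87.5 in DLD1 and between 106 and 186 in HCT116 (-1.47 ± 0.12, adjusted p = 1.5e-06), above the level in both lines. Some probe sets of the array stand for it together with LINC01347, LINC01000 and LINC01061, near-identical copies, so which copy was read is uncertain.

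The other genes whose arrays did not overlap between the lines were LINC00842, LINC00920 and LINC02983, higher in DLD1, and LINC01123 and LINC02210, lower there. That made 11 of 62 LINC genes, a share close to the 2513 of 15676 tested genes that did the same. The 11 include genes that reached the level in 1 line only. LINC00920 had 41.7 to 70.9 in DLD1 and 18.2 to 31.9 in HCT116. LINC01123, which shares a further probe set with LINC01106, had 153 to 291 in DLD1 and 454 to 684 in HCT116. LINC00460 overlapped between the lines, at 21.5 to 43.6 in DLD1 and 8.69 to 25.4 in HCT116, and was called higher in DLD1 by 1.04.

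**Figure D2:**
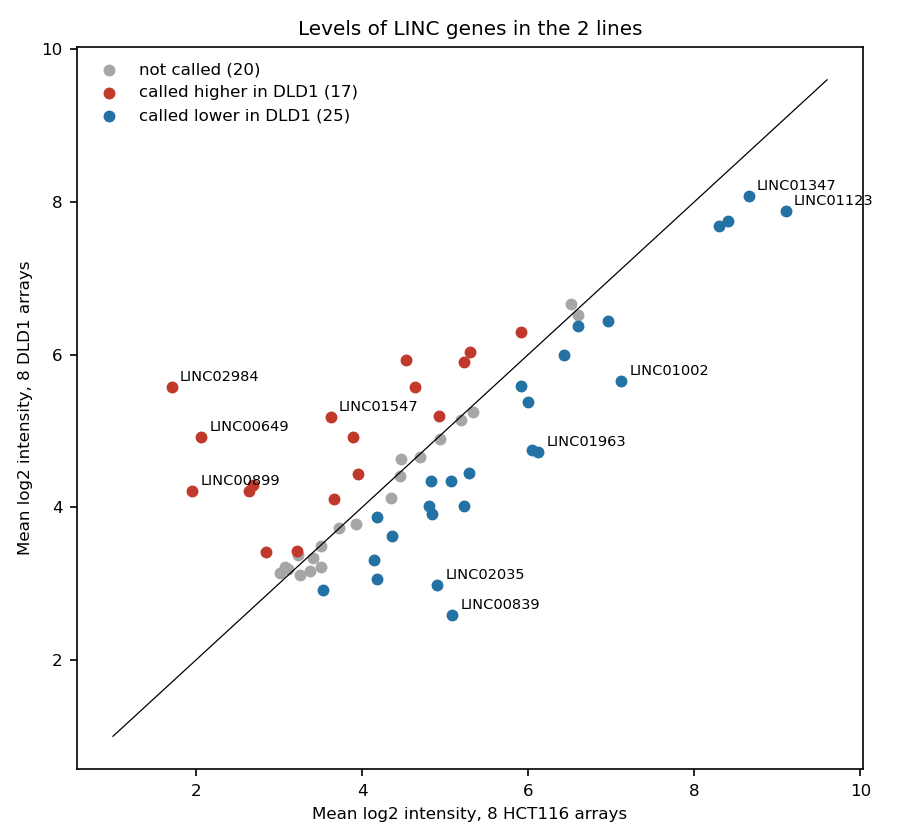
Each point is 1 of the 62 LINC genes, with the mean log2 intensity over the 8 HCT116 arrays on the x axis and over the 8 DLD1 arrays on the y axis. The line marks equal levels, red points were called higher in DLD1 (17) and blue points lower (25). LINC02984 lies farthest above the line and LINC00839 farthest below it.

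Without glutamine, more LINC genes rose than fell in each derivative. The 5 genes called higher in all 4 derivatives were LINC01881, LINC00963, LINC02604, LINC00857 and LINC01347, and none was called lower in all 4. In DLD1 Mut 20 rose and 3 fell, or 32.3% and 4.84%, beside 16.8% and 16.8% of all tested genes. In DLD1 WT 17 rose and 6 fell, or 27.4% and 9.68%, beside 14.0% and 13.0%. In HCT116 Mut 19 rose and 3 fell, or 30.6% and 4.84%, beside 16.4% and 16.5%. In HCT116 WT 12 rose and 0 fell, 19.4% higher, beside 10.3% and 10.1% of all tested genes, and 20 of the 62 had an unadjusted p under 0.05 in either direction.

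Averaged over the derivatives 28 genes rose and 4 fell, 45.2% and 6.45% of the 62, while 24.3% and 23.5% of all tested genes did. Among the 11231 tested genes at the same level 30.9% rose and 29.9% fell on average. In the derivatives these shares were 22.3% and 21.7% in DLD1 Mut, 18.2% and 17.0% in DLD1 WT, 20.9% and 21.7% in HCT116 Mut and 13.4% and 13.5% in HCT116 WT. The median change of the LINC genes was 0.229 and that of all tested genes -0.004. The change was positive in all 4 derivatives for 24 genes and negative for 3, where 19.9% and 19.8% of tested genes showed each pattern. Called higher in all 4 were 8.06% of the LINC genes and 3.54% of the tested genes, and 3.67% of tested genes were called lower in all 4. At a mean log2 of 3 or more, 4.92% of tested genes were called higher in all 4. In no derivative was a call made for 25 of the genes (40.3%), beside 45.6% of all tested genes. These counts are a description of genes picked for their level, and 7 of the genes share a probe set with another symbol. Among the other 55, an alternative chosen after the data were seen, 23 rose and 4 fell.

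**Figure D3:**
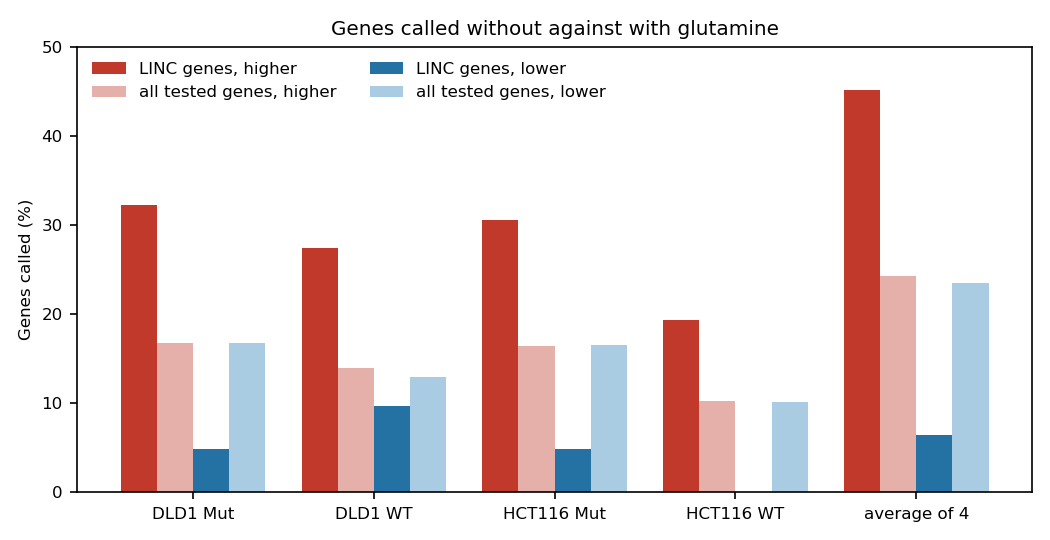
Bars give the percent of genes called without against with glutamine, in each derivative and on average over the 4. Dark bars are the 62 LINC genes and pale bars all 15676 tested genes, red for higher and blue for lower. Dark red bars run from 19.4% to 45.2% and exceed the pale ones, while dark blue bars do not pass 9.68%.

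LINC01881 rose most on average. With glutamine it read 38.2 and 45.9 in DLD1 Mut, 56.7 and 50.3 in DLD1 WT, 92.9 and 75.2 in HCT116 Mut and 82.6 and 63.2 in HCT116 WT. Without it the same groups read 191 and 138, 149 and 165, 203 and 226, and 196 and 179. Every array without glutamine was above every array with it, in both lines. The changes were 1.96, 1.55, 1.36 and 1.38 (each ± 0.19), with an average of 1.56 ± 0.09 (adjusted p = 2.9e-07).

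LINC00963 differed between the lines in its size of response. It went from 21.9 and 26.7 to 40.1 and 42.2 in DLD1 Mut and from 20.1 and 16.7 to 26.7 and 31.5 in DLD1 WT. In HCT116 it went from 41.9 and 40.2 to 160 and 153 in Mut and from 32.8 and 25.9 to 119 and 84.8 in WT. All 4 groups without glutamine stood above their partners, with changes of 0.77, 0.66, 1.93 and 1.79 (each ± 0.18). The response was smaller in DLD1 by 1.14 ± 0.18 on the log2 scale (adjusted p = 0.0018).

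LINC02604 went from 49.5 and 39.1 to 146 and 143 in DLD1 Mut, from 31.0 and 39.0 to 85.9 and 81.2 in DLD1 WT, from 36.3 and 27.4 to 75.7 and 58.1 in HCT116 Mut and from 25.5 and 23.4 to 57.7 and 39.0 in HCT116 WT. The average change was 1.25 ± 0.11 (adjusted p = 3.7e-06), with no overlap in any derivative. LINC00857 went from 47.8 and 55.2 to 139 and 125, from 59.8 and 52.7 to 139 and 116, from 77.4 and 74.2 to 155 and 149 and from 81.9 and 65.0 to 111 and 99.9, in the same order. Its changes were 1.36, 1.17, 1.00 and 0.53 (each ± 0.14), and glutamine with its interactions held 89.68% of its variance. LINC01347, bright at 193 to 540, rose by 0.79, 0.57, 0.67 and 0.54 (each ± 0.14), with the doubt about its copies given above.

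LINC00941 and LINC02709 also rose by 2-fold or more on average, which 6 genes did (9.68%, beside 1.70% of all tested genes). LINC00941 read 11.4 to 16 with and 26.1 to 44.2 without glutamine in DLD1, with changes of 1.20 in Mut and 1.14 in WT (each ± 0.26). In HCT116 Mut it went from 25.8 and 22.7 to 75.1 and 80.7, a change of 1.69 ± 0.26 (adjusted p = 0.00056). In HCT116 WT it read 25.2 and 19 with and 38.7 and 24.7 without, a change of 0.50 ± 0.26 that was not called (adjusted p = 0.21). LINC02709 went from 5.11 and 5.5 to 33.7 and 27.1 in DLD1 Mut, a change of 2.51 ± 0.17, the largest rise of the 62 in that derivative. It went from 5.29 and 4.02 to 9.03 and 11.1 in DLD1 WT (1.12 ± 0.17). In HCT116 Mut it went from 7.46 and 7.04 to 12.5 and 10.2 (0.64 ± 0.17). HCT116 WT read 7.26 and 7.5 with glutamine and 9.04 and 7.72 without it. With glutamine the group means of LINC02709 were 2.41, 2.21, 2.86 and 2.88 (log2), in the same order. Only its arrays without glutamine thus brought it to the level of 3. Its changes, also where it is counted or named elsewhere, are a description with no test.

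Other risen genes were smaller or held to some derivatives. LINC00460 rose by 0.58 and LINC00673 by 0.64 on average. LINC01012 rose in DLD1 Mut (0.88), HCT116 Mut (1.12) and HCT116 WT (1.42), each ± 0.22, and changed by 0.06 in DLD1 WT. LINC03027 rose in both DLD1 derivatives, by 1.16 in Mut and 1.44 in WT, and in HCT116 Mut by 0.86, each ± 0.24. In both DLD1 derivatives 13 of the 62 genes were called higher, beside 10.4% of all tested genes, and in both HCT116 derivatives 9, beside 6.43%.

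Falls were few and 3 of them were shared by both DLD1 derivatives. LINC01963 went from 53.4 and 34.1 to 12.7 and 12.1 in DLD1 Mut and from 43.7 and 54.7 to 24.6 and 14.6 in DLD1 WT, with changes of -1.78 and -1.37 (each ± 0.27). LINC00641 went from 22.6 and 27.4 to 7.93 and 7.79 and from 27.8 and 32.1 to 13.0 and 10.6 in the same derivatives, with changes of -1.66 and -1.34 (each ± 0.19). Its HCT116 arrays ran from 28.0 to 42.7, with changes of 0.08 and 0.00. The third was LINC02984, with -1.60 and -1.26 (each ± 0.25).

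In HCT116 Mut the called falls were LINC03124 (-0.87 ± 0.29, adjusted p = 0.039), LINC01521 (-0.80, adjusted p = 0.021) and LINC00630 (-0.47, adjusted p = 0.021). Each of these 3 calls could be lost by leaving out 1 array. The adjusted p reached 0.248 for LINC03124 without replicate 1 of HCT116 Mut +Gln, and 0.152 for LINC01521 without replicate 2 of that group. For LINC00630 it reached 0.173 without replicate 2 of HCT116 Mut -Gln. LINC01123 went both ways, with -0.46 in DLD1 WT and 0.38 and 0.48 in HCT116 Mut and WT. Without replicate 2 of DLD1 WT +Gln, 15 genes were called in DLD1 WT instead of 23.

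**Figure D4:**
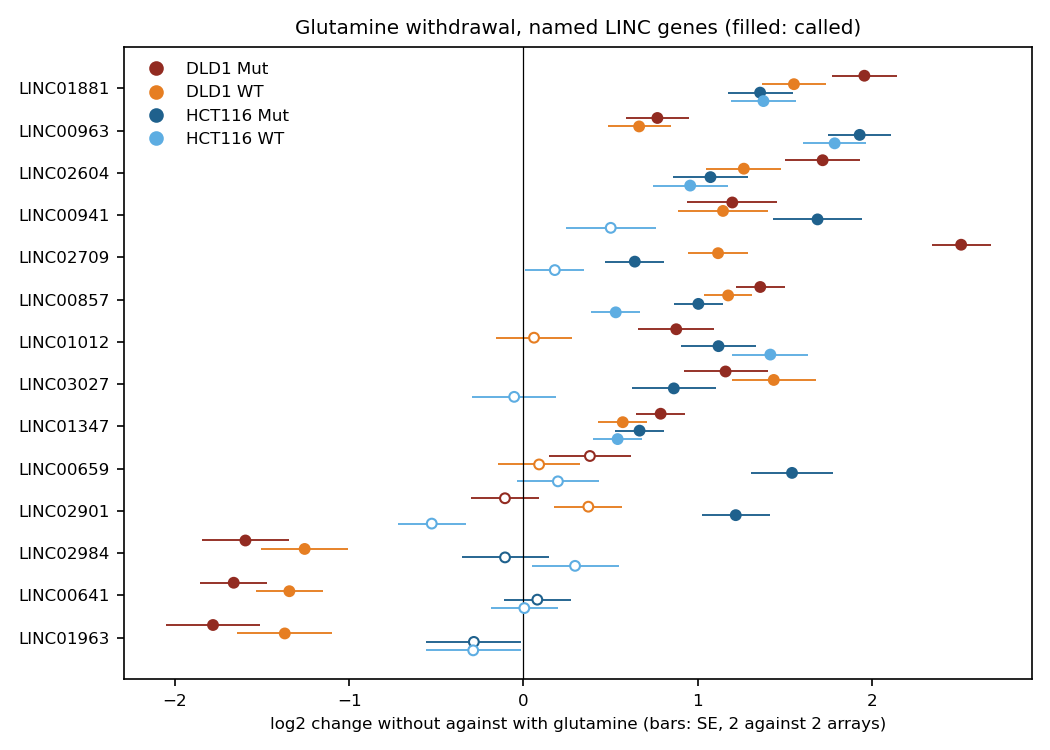
Points give the log2 change without against with glutamine for 14 LINC genes, 1 colour per derivative, and bars are the SE of 2 against 2 arrays. Filled points were called. LINC01881, LINC00963, LINC02604, LINC00857 and LINC01347 lie right of 0 in all 4 derivatives, and LINC02984, LINC00641 and LINC01963 are filled left of 0 in DLD1 and open in HCT116.

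The response to glutamine differed between the lines in 15 genes, higher in DLD1 for 6 and lower for 9, beside 10.0% and 8.93% of all tested genes. LINC02709 responded more in DLD1 by 1.40 ± 0.17, a description with no test, since only its -Gln arrays brought it to the level. LINC03027 did so by 0.89 ± 0.24, also a description, since it reached the level in DLD1 only and read 4.46 to 8.79 in HCT116. LINC00938 did so by 0.61 ± 0.17 (adjusted p = 0.032). LINC00641, LINC02984 and LINC01963 differed by -1.54 ± 0.19, -1.52 ± 0.25 and -1.29 ± 0.27. Of these LINC02984 also reached the level in DLD1 only, so its value is a description. For LINC02984 the HCT116 mean log2 of 1.71 was close to the lowest mean among tested genes, 1.651, so a fall there had little room to be seen. The calls of LINC03027 and LINC00938 were lost without any 1 of 7 and of 10 arrays, with an adjusted p of at most 0.0611 and 0.0725.

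The PIK3CA genotype separated few LINC genes with glutamine, and few of all tested genes. With glutamine in DLD1 3 were called higher in Mut than in WT and 1 lower, beside 2.60% and 3.20% of all tested genes. They were LINC03027 (1.31 ± 0.24, adjusted p = 0.0096), LINC02984 (1.02 ± 0.25, adjusted p = 0.04), LINC00239 (0.77, adjusted p = 0.034) and LINC00266-1 (-0.72, adjusted p = 0.03). LINC03027 read 20.3 and 17.2 in Mut and 7.03 and 8.08 in WT. The count was 0 without replicate 1 of DLD1 Mut +Gln and 1 without any other array of these 2 groups. The call of LINC03027 was lost without replicate 1 of DLD1 Mut +Gln (adjusted p = 0.0774) and without replicate 1 of DLD1 WT +Gln (adjusted p = 0.0644). The call of LINC02984 was lost on leaving out any 1 of 8 of the 16 arrays (adjusted p up to 0.19), with a replicate block over all arrays (adjusted p = 0.0578) and with no level filter (adjusted p = 0.0524), and those of LINC00239 and LINC00266-1 without any 1 array of these 2 groups. With glutamine in HCT116 limma called 0 of the 62 in either direction, beside 1.12% and 2.12% of all tested genes, while 9 had an unadjusted p under 0.05 and 1 was called with trended and robust moderation.

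Without glutamine more genes were called, and most were higher in Mut. In DLD1 7 were higher and 0 lower, beside 4.36% and 5.91% of all tested genes, with 18 at an unadjusted p under 0.05 in either direction. In HCT116 12 were higher (19.4%) and 2 lower (3.23%), beside 12.3% and 12.4%. Among tested genes at a mean log2 of 3 or more the shares were 5.63% and 7.37% in DLD1 and 15.6% and 16.1% in HCT116, so the higher count in HCT116 stood close to that background. In DLD1 the count was 4 without either replicate of DLD1 Mut -Gln and 2 without replicate 2 of DLD1 WT -Gln. In HCT116 it was 8 and 7 without replicate 1 and 2 of HCT116 Mut -Gln, and 6 without replicate 2 of HCT116 WT -Gln. The comparisons of genotype without glutamine share arrays with those of glutamine within a derivative.

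LINC01000, LINC00265 and LINC00467 were called higher in Mut without glutamine in both lines. The share of all tested genes called so in both lines is not given here, so these genes are named as a description. LINC00265 read 122 and 143 in Mut and 81.9 and 71.0 in WT in DLD1, and 117 and 116 against 80.1 and 61.4 in HCT116, differences of 0.80 and 0.73 (each ± 0.15). LINC00467 read 105 and 93.5 against 66.8 and 62.0 in DLD1 and 119 and 128 against 82.2 and 74.8 in HCT116, differences of 0.62 and 0.65 (each ± 0.12). LINC01000, uncertain for its copies, differed by 0.45 in each line. No LINC gene was called in both lines with glutamine, where none was called in HCT116. The call of LINC00265 in DLD1 was lost without replicate 2 of DLD1 Mut -Gln (adjusted p = 0.0596) and without replicate 2 of DLD1 WT -Gln (adjusted p = 0.0624).

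In DLD1 without glutamine LINC02709 differed most by genotype (1.60 ± 0.17), a description as only its -Gln arrays brought it to the level. LINC03027 followed (1.03 ± 0.24). The call of LINC03027 was lost without replicate 2 of DLD1 Mut -Gln (adjusted p = 0.149) and without either replicate of DLD1 WT -Gln. In HCT116 LINC02901 read 41.9 and 29.9 in Mut and 12.3 and 11.5 in WT (1.58 ± 0.20, adjusted p = 0.00026). LINC00659 read 37.6 and 31.9 against 12.1 and 12.4 (1.50 ± 0.23, adjusted p = 0.0011), and LINC00941 differed by 1.33 ± 0.26. LINC00294 ran the other way, with 60.3 and 53.3 in Mut and 125 and 104 in WT (-1.01 ± 0.12, adjusted p = 0.00025). LINC00839 was also lower in Mut (-0.78 ± 0.23), a call lost without either Mut array or replicate 2 of HCT116 WT -Gln (adjusted p up to 0.182).

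Interactions ask whether the glutamine response itself differed between Mut and WT. In DLD1 1 gene was called higher and 0 lower, beside 0.255% and 0.568% of all tested genes, with 10 at an unadjusted p under 0.05. It was LINC02709, with 1.39 ± 0.24, a description as only its -Gln arrays brought it to the level. Its call was lost without any 1 of 9 arrays (adjusted p up to 0.12), while the value stayed between 1.20 and 1.59. In HCT116 4 were called higher and 2 lower, beside 4.75% and 4.75%. That count was 1 without replicate 2 of HCT116 WT +Gln or replicate 2 of HCT116 Mut -Gln. It was 3 without either replicate of HCT116 Mut +Gln, replicate 1 of HCT116 Mut -Gln or replicate 2 of HCT116 WT -Gln. LINC02901 rose in Mut (1.22 ± 0.20) and changed by -0.53 ± 0.20 in WT, where it was not called, an interaction of 1.74 ± 0.28 (adjusted p = 0.0042). No array took that call away when left out.

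LINC00659 rose by 1.54 ± 0.23 in HCT116 Mut and changed by 0.20 in WT, an interaction of 1.34 ± 0.33 (adjusted p = 0.03). LINC01623 had an interaction of 1.20 ± 0.27 (adjusted p = 0.02), which was -0.15 when its probe sets were averaged. LINC00467 had 0.68 ± 0.17. LINC00673 rose in HCT116 WT by 1.34 ± 0.18 and changed by 0.34 in Mut, an interaction of -0.99 ± 0.25 (adjusted p = 0.035). LINC00294 had -0.64 ± 0.18 (adjusted p = 0.047). Left-out arrays ended the call of LINC00659 for 6 arrays, of LINC00673 for 5, of LINC01623 for 4 and of LINC00294 for 15, with adjusted p of at most 0.0971, 0.112, 0.0724 and 0.143.

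**Figure D5:**
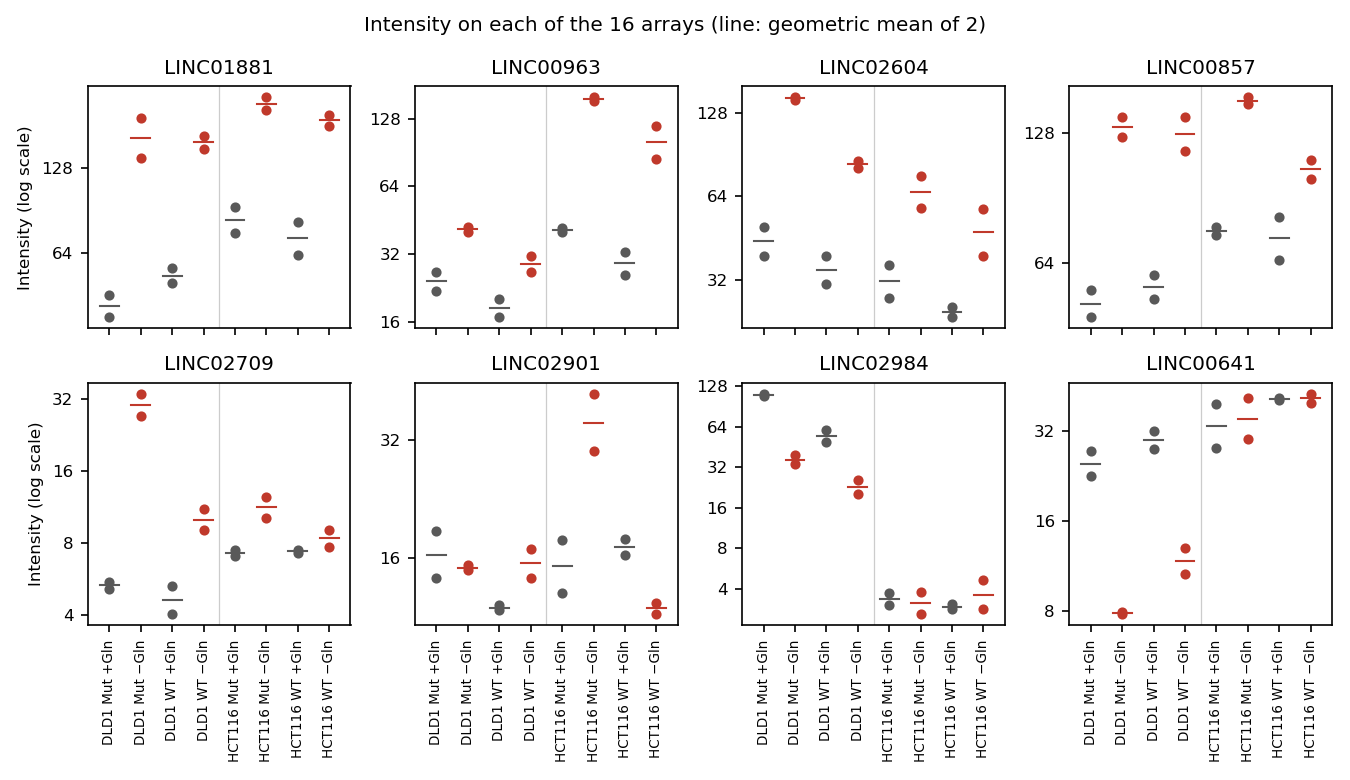
Points are the intensities on the 16 arrays, on a log axis, for 8 LINC genes, with grey for +Gln and red for -Gln. Lines are geometric means of 2 arrays, and a vertical line parts DLD1 from HCT116. LINC01881 is red above grey in every derivative, LINC02901 rises in HCT116 Mut, and LINC02984 does not pass 4.68 in HCT116.

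Nearest protein-coding genes were read beside the LINC genes, since some such RNAs act on a neighbour. Of the LINC genes that rose on average 18 had a tested nearest protein-coding gene. Of these neighbours 5 rose and 7 fell, with a median change of 0.02. Of all 42 tested neighbours 13 rose and 10 fell, and of all tested genes 24.3% rose and 23.5% fell. The pairs below are named as examples. LINC02604 rose while TMEM248 fell by 0.33. LINC00857 rose while ANXA11, an annexin gene, changed by 0.009. Among the pairs that rose together were LINC00460 with EFNB2, which rose by 0.69, and LINC02035 with SLC49A4, which rose by 0.42. LINC01012 lies next to H2BC13, a histone gene, which fell by 1.79. Of the LINC genes that fell, LINC00641 lies next to HNRNPC, an RNA-binding protein gene, which rose by 0.43, and LINC01963 next to XRCC5, a DNA repair gene, which fell by 0.41.

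Other long noncoding RNAs with names of their own were set beside them, from lists chosen with earlier results known. Of 16 tested genes listed as snoRNA hosts, whose introns hold small nucleolar RNAs, 7 rose and 6 fell without glutamine on average. Of all tested genes 24.3% rose and 23.5% fell. The list also holds RMRP and SCARNA2, which are not such host genes. SCARNA2 is among the 6 falls and RMRP was not called. SNHG32 rose by 1.42 and ZFAS1 by 1.03, while SNHG1 fell by 1.12 and DANCR by 1.01, on the log2 scale. Between the lines 3 of the 16 were called higher in DLD1 and 13 lower, beside 30.3% and 27.0% of all tested genes. RMRP and SCARNA2 are among the 13. Of 7 tested microRNA host genes 1 rose and 0 fell without glutamine on average, beside 24.3% and 23.5% of all tested genes. Of 26 other named long noncoding RNAs 6 rose and 7 fell, near those shares. Among these 26, LUCAT1 changed by 1.36, MALAT1 by 0.50 and TMPO-AS1 by -0.97.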

How the data were processed

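Total RNA of 16 cultures was labelled with biotin by the Affymetrix whole-transcript protocol, per the labels' protocols. The authors deposited 1 linear intensity for each of 53617 probe sets and array; the sources used here do not name the method, software or genome build behind them. Their log2 was used with no pseudocount and no further normalization. Of the probe sets 23871 had exactly 1 symbol, 1842 several and 27904 none, and 90 symbols were updated through a RefSeq gene table of GRCh38.p14, whose coordinates served only to find neighbouring genes. The 15676 genes that made up the top 70% by mean log2 intensity entered limma (version 3.58.1, R 4.3.3; lmFit and eBayes on 8 group means, 8 residual and 2.491 prior degrees of freedom), after a check on simulated data. Of the 642 LINC genes 223 were tested. The number of arrays limits the precision.

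The LINC genes, gene lists, contrasts and alternatives were chosen with earlier results of these data known. Genes were named by rule: per contrast the 3 called genes that rose and the 3 that fell most, given arrays that did not overlap, genes called in all 4 derivatives, and the 5 brightest. Others were chosen after their values were seen. Replicate numbers did not pair the samples (28 group pairs, r from -0.036 to 0.033). Alternatives were other level filters, normalizations, symbol and probe set rules, variance models, a fold minimum, a replicate block, separate lines and each array left out.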

Additional observations from a re-analysis of the deposited data

Results flagged for a closer look

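Glutamine responses called different between derivatives or lines are listed with their log2 values. Several of these calls were lost without some 1 array, as given above. The values of LINC02709, and the line differences of LINC03027 and LINC02984, are a description with no test. LINC03027 and LINC02984 reached the level in DLD1 only. Between Mut and WT in DLD1 the response of LINC02709, which passed the level filter only through its -Gln arrays, differed by 1.395. In HCT116 the same difference was 1.744 for LINC02901, 1.343 for LINC00659, 1.201 for LINC01623, -0.993 for LINC00673 and -0.639 for LINC00294. Between DLD1 and HCT116 the response differed by 1.405 for LINC02709, 0.893 for LINC03027 and 0.608 for LINC00938, and by -1.545 for LINC00641, -1.521 for LINC02984 and -1.289 for LINC01963.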

How the results depend on the processing

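Leaving aside the 2-fold minimum, 42 of 59 named changes kept their direction and call in every alternative run. The other 17 lost the call without some 1 array. Of 1514 alternative values, again without the 2-fold minimum, 1396 kept direction and call, 117 kept only the direction, and 1 turned. The HCT116 interaction of LINC01623 was -0.155 when its probe sets were averaged. With a 2-fold minimum, called LINC genes numbered 16 between the lines, 9 and 9 for glutamine in DLD1 Mut and WT, 10 and 5 in HCT116 Mut and WT, 6 on average, 2 for genotype in DLD1 with glutamine, 3 for the HCT116 interaction and 5 for the line difference of the response. For genotype in HCT116 with glutamine 1 gene in place of 0 was called with genes at a mean of 3 or more, quantile normalization, symbols as given, eBayes with trend and robust, and either replicate block. The DLD1 interaction gave 0 with no level filter, with the replicate block within each line and with each line fitted separately, and 3 with trend and robust. Each line fitted separately gave 2 for the HCT116 interaction. The replicate block over all arrays called 30 genes on average for glutamine, in place of 32.

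Leaving out each array in turn gave 39 to 43 called genes between the lines, 17 to 26 and 15 to 23 for glutamine in DLD1 Mut and WT, 16 to 25 and 8 to 13 in HCT116 Mut and WT, and 29 to 33 on average. It gave 0 to 5 and 2 to 8 for genotype in DLD1 with and without glutamine, 0 to 0 and 6 to 15 in HCT116, 0 to 1 and 1 to 6 for the interactions in DLD1 and HCT116, and 10 to 15 for the line difference of the response. Intensities near the dim end leave little room to see a fall.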

Other observations

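Some LINC genes outside the 62 had a mean log2 intensity of 3 or more in 1 line. LINC00858 had 4.358 in DLD1 and 1.621 in HCT116, and LINC01220 had 3.371 and 2.108. LINC01270 had 2.055 in DLD1 and 3.802 in HCT116, LINC00491 had 1.471 and 3.85, LINC02616 had 1.536 and 3.326, and LINC01098 had 0.822 and 3.421. These values are a description and were picked after they were seen.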
